A study of Mus musculus with 12 samples.

Results

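The heat shock and chaperone genes described here were 10 gene symbols chosen by name for their roles in protein folding, out of 24421 symbols in the count table. They were Hsf1, Hspa1a, Hspa1b, Hspa8, Hspa5, Dnajb1, Dnaja1, Hsph1, Hsp90aa1 and Hsp90ab1, and all 10 were measured and passed the filter on low counts. RNA-seq was performed on bone marrow-derived macrophages (BMDMs), which are bone marrow cells grown into macrophages with M-CSF (100 ng/mL, 5 days, medium replaced on day 3). The study asked how iBET changed the response of these cells to immune complexes that engage Fcγ receptors. iBET was I-BET151 (5.0 µM), a small molecule that blocks the acetyl-lysine pockets of BET bromodomain proteins. There were 4 groups of 3 libraries. The DMSO Ova group received DMSO solvent and ovalbumin alone (Ova), the DMSO IC group received DMSO and ovalbumin immune complexes (IC), the iBET Ova group received iBET and Ova, and the iBET IC group received iBET and IC. The labels give the solvent as 5% DMSO and the drug as added together with the stimulus, whereas the study's methods place iBET before the stimulus, so the length of drug exposure is not settled. Stimulation lasted 4 h in every group, every culture had the same M-CSF exposure, and all mice were C57BL/6. Each of 3 mice (A, B and C) contributed a library to all 4 groups, so the replicates were animals, and no untreated culture was among the 12 libraries.

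Chaperones bind unfolded protein and release it in cycles that are driven by ATP. HSF1 is the transcription factor that switches on heat-inducible chaperone genes through heat shock elements, which are inverted repeats of GAA in promoters, and HSP70 and HSP90 proteins are known to hold HSF1 inactive. In the endoplasmic reticulum (ER) a separate sensor system, the unfolded protein response, acts on the HSP70 member BiP (Hspa5) and its partners through ER stress elements. Macrophages make large amounts of secreted and lysosomal protein, and their constitutive chaperones are abundant.

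Depth ranged from 7.55 M to 17.4 M counts per library. The DMSO Ova library of mouse A stood apart, with 77.4% of its counts in the ribosomal RNA gene Rn45s, against 1.41% to 7.83% in the other 11, which left it 1.77 M other counts. All 8 macrophage markers were detected, with a summed level of 7201 to 9708 CPM (counts scaled to library size, by TMM factors for the chaperone genes and to counts outside Rn45s for markers, per M). With iBET 1 marker rose and 1 fell in Ova and 2 rose and 1 fell in IC. The one that fell was the myeloid transcription factor gene Spi1, with log2 changes of -1.54 and -1.75 (adjusted p 2.34e-06 and 7.61e-07). Those that rose were Mertk in Ova and IC (0.77 and 1.25, adjusted p 0.0354 and 0.00244) and Lyz2 in IC (0.41, adjusted p 0.0222). Of 21 markers of other cells, 20 were in the table, 16 of them had under 10 counts in every library and Nkg7, Cpa3 and Gp9 were among those at 0. Their summed level was 2.83 to 21.9 CPM in DMSO Ova, 6.57 to 22.9 in iBET Ova, 4.78 to 21.3 in DMSO IC and 8.28 to 20.8 in iBET IC, most of it from the granule gene Ngp. The dendritic cell gene Zbtb46, with at most 17 counts in a library, was called higher with iBET in Ova (3.38, adjusted p 0.00816). In IC it was not called (1.32, adjusted p 0.0864). Flt3 and Camp of the same list, with at most 5 and 20 counts in a library, had lower mean levels with iBET in both arms. In bulk RNA, fewer cells expressing a gene and less RNA per cell cannot be told apart.

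Promoter sequences are shown for the members that rose with iBET, since they differ in the elements they hold. RefSeq windows (build GRCm38.p6) matched 6 of the 10 members, Hspa1a, Hspa1b, Dnajb1, Dnaja1, Hsph1 and Hspa5, with no entry for Hsf1, Hspa8, Hsp90aa1 and Hsp90ab1. The 250 bases before the first RefSeq start are printed 5′ to 3′ on the gene's strand for Hspa1a (chr17:34972157-34972406, minus strand), Dnajb1 (chr8:83607925-83608174, plus strand) and Hspa5 (chr2:34771840-34772089, plus strand). Capitals mark exact matches to a heat shock element of 2 units (GAANNTTC or TTCNNGAA) or to the ER stress element (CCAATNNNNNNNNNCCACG), searched on both strands.
Hspa1a: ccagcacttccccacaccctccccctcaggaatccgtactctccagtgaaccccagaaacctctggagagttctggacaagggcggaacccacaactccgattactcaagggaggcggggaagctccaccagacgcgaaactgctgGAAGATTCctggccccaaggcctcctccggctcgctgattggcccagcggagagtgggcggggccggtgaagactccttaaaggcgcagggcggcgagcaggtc
Dnajb1: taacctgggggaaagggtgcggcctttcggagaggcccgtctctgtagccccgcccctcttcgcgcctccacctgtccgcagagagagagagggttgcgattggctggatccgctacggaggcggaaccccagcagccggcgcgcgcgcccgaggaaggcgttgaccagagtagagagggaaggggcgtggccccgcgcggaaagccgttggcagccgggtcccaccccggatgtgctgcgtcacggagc
Hspa5: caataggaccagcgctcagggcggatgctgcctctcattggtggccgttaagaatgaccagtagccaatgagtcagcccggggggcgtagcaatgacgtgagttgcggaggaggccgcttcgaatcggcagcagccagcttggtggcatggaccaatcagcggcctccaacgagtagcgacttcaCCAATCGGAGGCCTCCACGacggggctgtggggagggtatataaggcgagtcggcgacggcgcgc

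The genes themselves lie at chr17:34969190-34972156 (Hspa1a), chr17:34956436-34959238 (Hspa1b), chr8:83608193-83612653 (Dnajb1) and chr2:34771970-34777547 (Hspa5) in the GENCODE annotation of the same build, and reads were counted per gene. The GENCODE start of Hspa5 lies upstream of the RefSeq one, so that 120 of its 250 printed bases, the ER stress element among them, lie inside the GENCODE gene. The Hspa1a and Hspa1b promoters were nearly the same sequence. The Hspa1b stretch (chr17:34959239-34959488, minus strand) differed from that of Hspa1a at 3 of 250 bases, C44T, T47C and T249G (the Hspa1a base, the position counted from 1 at the left of the printed stretch, then the Hspa1b base). Both held GAAGATTC at 104 to 97 bases before the RefSeq start. Hsph1 held TTCTCGAA at 54 to 47 bases before 1 of its RefSeq starts, and Dnaja1 held GAAAATTC at 124 to 117 bases before the first of its 3, a stretch that lies wholly inside the GENCODE gene. Such a 2-unit match was found in the 250 bases of 12.8% of all 32851 RefSeq windows. Hspa5 held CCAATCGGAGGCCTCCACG at 65 to 47 bases before its RefSeq start, and the ER stress element was in 37 of all windows (0.113%). Neither motif was found in the first Dnajb1 stretch. These are descriptions of letters, and binding was not measured.

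iBET was accompanied by higher mRNA of 4 members, and they were the same 4 with Ova and with IC. Both copies of the stress-inducible cytosolic HSP70 gene (Hspa1a and Hspa1b), its J-domain partner Dnajb1 and the ER HSP70 gene Hspa5 rose by 1.92 to 6.96 fold. In Ova 4 of 10 members were called at an adjusted p under 0.05, all 4 higher, against 31.3% of all 11468 genes tested (17.1% higher). In IC 5 of 10 were called, 4 higher and 1 lower, against 34.8% of all genes (19.0% higher, 15.8% lower). The median log2 fold change of the 10 members was 0.27 in Ova and 0.18 in IC, beside 0.02 and -0.00 over all genes tested. The Ova and IC comparisons share no library, although they share the 3 mice.

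**Figure D1:**
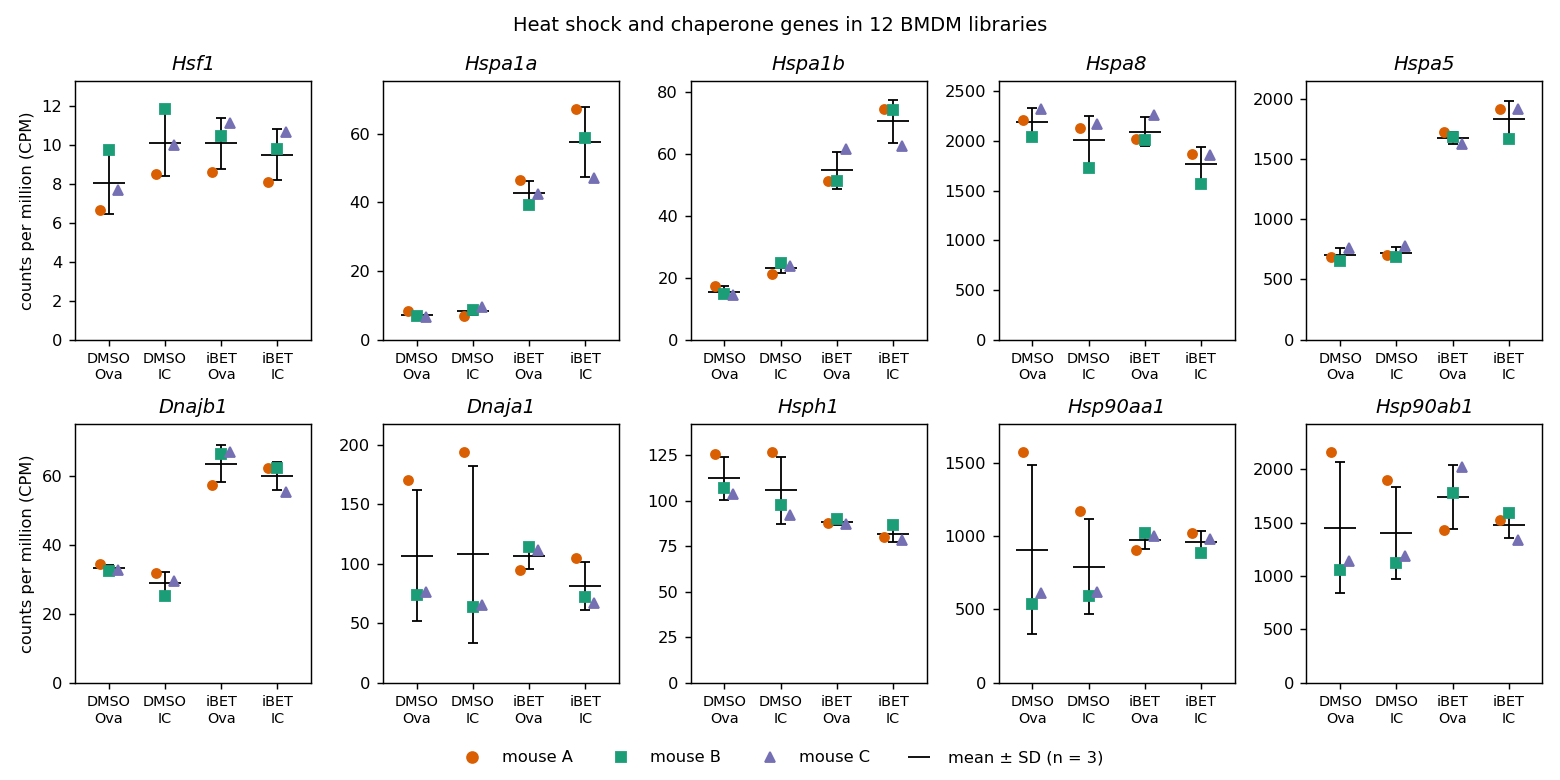
Level of each of the 10 genes in CPM (y axis, linear, from 0) in the 4 groups (x axis), with 1 point per mouse and black lines for the mean and SD (n = 3). The iBET points of Hspa1a, Hspa1b, Hspa5 and Dnajb1 lie above all DMSO points, and the mouse A points of Dnaja1, Hsp90aa1 and Hsp90ab1 lie high in both DMSO groups.

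Hspa1a encodes an HSP70 that is made on demand when proteins unfold. Its level in mice A, B and C was 8.22, 6.98 and 6.63 CPM in DMSO Ova and 46.5, 39.3 and 42.4 CPM in iBET Ova. With IC it was 6.90, 8.58 and 9.44 CPM in DMSO and 67.3, 58.6 and 47.0 CPM in iBET. Every iBET library was above every DMSO library, with no overlap. The fitted log2 fold change was 2.60 in Ova (SE 0.17 with adjusted p 1.13e-06) and 2.80 in IC (SE 0.16 with adjusted p 3.03e-07), which is 6.06 and 6.96 fold. The DMSO Ova value of mouse A rested on 16 reads, and without that library the Ova change was 2.60 (adjusted p 2.86e-06). Hspa1a had the 27th and 18th smallest p among all genes tested in Ova and in IC.

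Hspa1b, the neighbouring copy, started from a higher level and moved less. It measured 17.5, 14.8 and 14.3 CPM in DMSO Ova and 51.2, 51.3 and 61.6 CPM in iBET Ova. In IC the levels were 21.3, 24.8 and 23.7 CPM in DMSO and 74.6, 74.3 and 62.6 CPM in iBET. The groups again did not overlap, and the changes were 1.85 in Ova (SE 0.13 with adjusted p 1.49e-06) and 1.60 in IC (SE 0.12 with adjusted p 1.95e-06) on the log2 scale.

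The balance between the 2 copies was examined after their values were seen. Hspa1a took 32.0%, 32.0% and 31.7% of the Hspa1a plus Hspa1b counts of mice A, B and C in DMSO Ova, with Wilson 95% intervals of 20.8% to 45.8%, 26.9% to 37.7% and 26.3% to 37.7%. In iBET Ova its share was 47.6% (44.8% to 50.3%), 43.4% (40.0% to 46.8%) and 40.8% (37.7% to 44.0%). The corresponding shares were 24.5%, 25.7% and 28.4% in DMSO IC and 47.4%, 44.1% and 42.9% in iBET IC. All 6 iBET libraries were above all 6 DMSO libraries. The mean share was higher with iBET by 12.0 percentage points in Ova and by 18.6 in IC. Each had a two-sided exact permutation p of 0.1, the smallest that 3 against 3 libraries allow. The permutation did not pair the libraries by mouse. Its p was fixed once the shares were seen not to overlap, so it adds no evidence to that. The intervals cover counting error only, and the reads carried no molecular identifiers. Annotated transcripts of the pair share sequence, as 46.0% of the 150-base windows of Hspa1a and 40.5% of those of Hspa1b also occur in other annotated genes, mainly each other. How such reads were counted is not given in the sources used here, so the level of each copy is uncertain. Hspa1a also overlaps Gm20481 on the other strand.

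**Figure D2:**
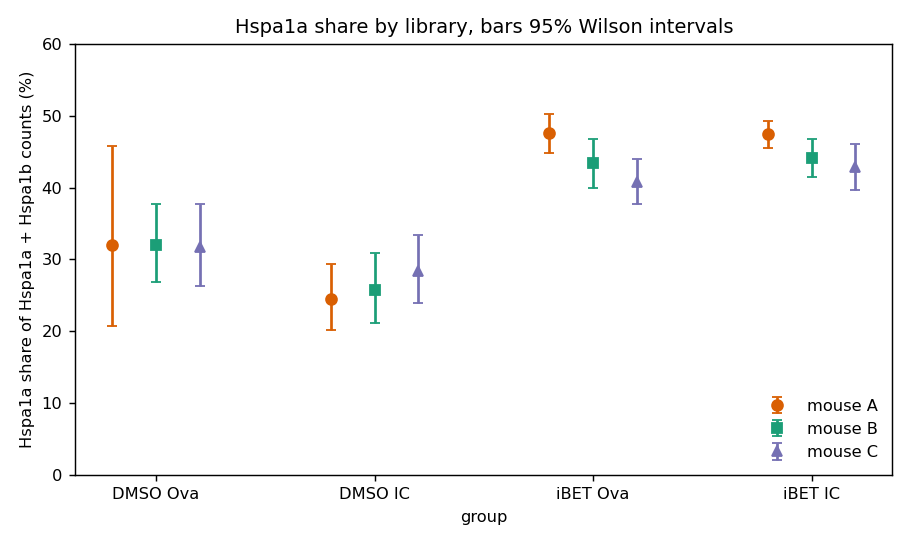
Share of Hspa1a in the summed counts of Hspa1a and Hspa1b (y axis, percent) in the 12 libraries, by group (x axis) and mouse (symbols), with 95% Wilson intervals as bars. The DMSO libraries lie between 24.5% and 32.0% and the iBET libraries between 40.8% and 47.6%.

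Dnajb1, the J-domain protein that hands clients to HSP70, showed the smallest of the 4 rises. Levels in mice A, B and C were 34.4, 32.6 and 32.8 CPM in DMSO Ova and 57.4, 66.6 and 67.1 CPM in iBET Ova. With IC they were 31.9, 25.3 and 29.6 CPM in DMSO and 62.5, 62.6 and 55.5 CPM in iBET. No iBET library reached down to a DMSO library. Dnajb1 rose by 0.94 in Ova (SE 0.11 with adjusted p 6.81e-05) and by 1.06 in IC (SE 0.11 with adjusted p 2.18e-05).

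Hspa5 encodes BiP, the HSP70 of the ER, which also holds the ER stress sensors inactive. It was an abundant transcript, at 687, 654 and 763 CPM in DMSO Ova and 1725, 1683 and 1623 CPM in iBET Ova. DMSO IC libraries held 702, 686 and 780.0 CPM and iBET IC libraries held 1920.0, 1671 and 1919 CPM. The lowest iBET library was thus above the highest DMSO library in both arms. The log2 fold change was 1.26 in Ova (SE 0.10 with adjusted p 4.06e-06) and 1.35 in IC (SE 0.10 with adjusted p 1.95e-06). Hspa5 made up 13.1% ± 2.84 (SD, n = 3) of the summed CPM of the 10 genes in DMSO Ova and 24.5% ± 2.29 in iBET Ova, and 14.2% ± 2.62 and 28.6% ± 1.21 in DMSO IC and iBET IC. The rises of Hspa1a, Hspa1b, Dnajb1 and Hspa5 kept an adjusted p under 0.05 in all 12 fits that left out 1 library and all 3 that left out 1 mouse, in both arms.

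**Figure D3:**
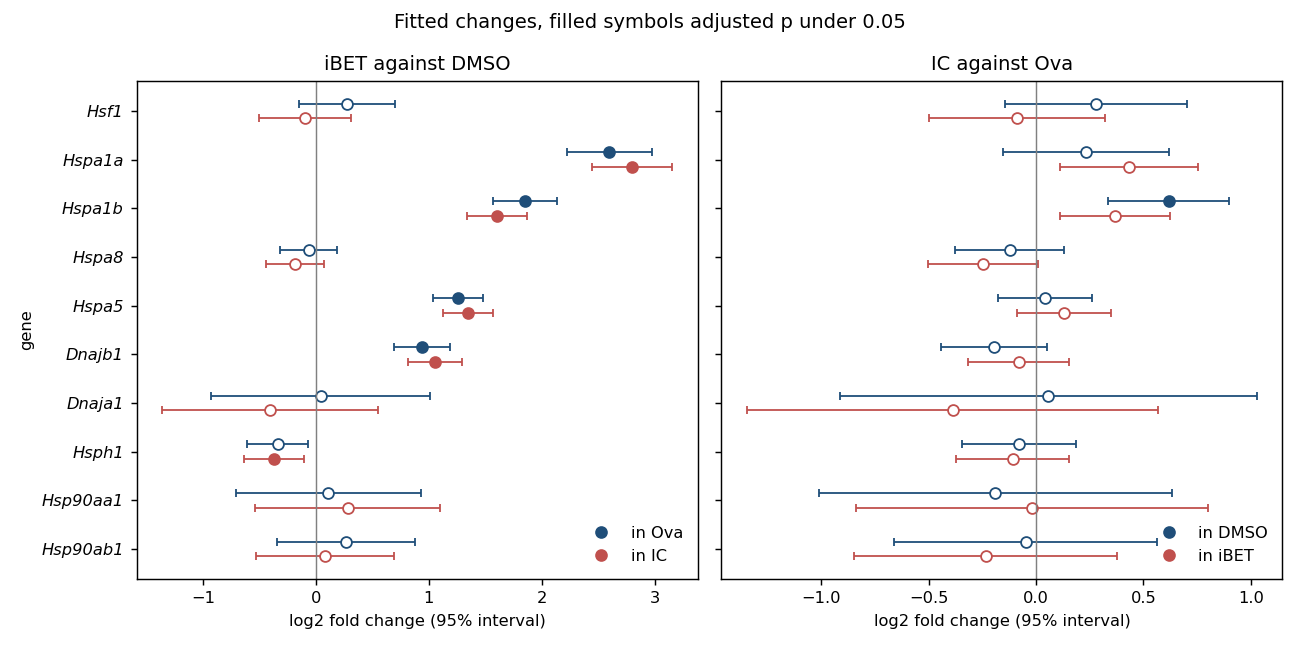
Fitted log2 fold change (x axis) of each gene (y axis) with its 95% interval, for iBET against DMSO (left) and IC against Ova (right), with filled symbols at an adjusted p under 0.05. The 4 genes that rose with iBET lie at 0.94 to 2.80, and Dnaja1, Hsp90aa1 and Hsp90ab1 have the widest intervals.

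Hsph1, an HSP110 that exchanges nucleotide on HSP70 and is itself a classical heat shock gene, moved the other way. It measured 126, 107 and 104 CPM in DMSO Ova and 87.8, 90.0 and 87.1 CPM in iBET Ova. Levels with IC were 127, 97.9 and 92.3 CPM in DMSO and 80.3, 86.7 and 78.5 CPM in iBET. The groups did not overlap in either arm, and mouse A had the highest DMSO value in both. Hsph1 fell by 0.37 on the log2 scale in IC (SE 0.12 with adjusted p 0.0326). In Ova the change was -0.34 (SE 0.12 with adjusted p 0.0535), whereas a fit that kept mouse as a block gave -0.34 with an adjusted p of 0.0268, which passes the threshold (38.3% of all genes were called in that fit). DESeq2 also called Hsph1 in Ova (-0.37, adjusted p 0.0275), as did a fit without mouse A (-0.28, adjusted p 0.0348). The main fit repeated with 1 library left out called Hsph1 in Ova in 2 of 12 cases (adjusted p up to 0.119). With 1 mouse left out it did so in 1 of 3 (adjusted p 0.216 without mouse B). The call in IC did not hold in 4 of 12 single-library omissions, those of any iBET IC library or of mouse A's DMSO IC library (adjusted p 0.0530 to 0.102, changes of -0.25 to -0.41), nor in the 3 single-mouse omissions (adjusted p 0.0924 to 0.128, changes of -0.21 to -0.46).

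Counts of groups that do not overlap have a high background here. In each arm 5 of 10 members had CPM ranges that did not overlap between iBET and DMSO, beside 45.1% of all genes in Ova and 48.6% in IC. They were the same 5 genes, Hspa1a, Hspa1b, Dnajb1, Hspa5 and Hsph1, and the first 4 were higher with iBET.

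The cytosolic HSP90 genes and the J-domain gene Dnaja1 split by mouse. Hsp90aa1 (the stress-responsive HSP90 copy) measured 1573, 534 and 614 CPM in mice A, B and C in DMSO Ova and 906, 1023 and 998 CPM in iBET Ova. With IC the values were 1169, 590.1 and 617 CPM in DMSO and 1022, 885 and 981 CPM in iBET. Mouse A was therefore higher than mice B and C in both DMSO groups, and its values fell inside or next to theirs with iBET. A wide DMSO spread was not particular to these members. Among other chaperone genes, Bag1 was at 150 ± 71.8 CPM (SD, n = 3) in DMSO Ova and 130 ± 14.9 in iBET Ova, and St13 at 224 ± 104 and 193 ± 20.2. Others, such as Cct6a (331 ± 12.0 and 284 ± 9.09), had no such spread. The difference between the iBET and DMSO libraries of Hsp90aa1 was -0.80, 0.94 and 0.70 log2 CPM in mice A, B and C in Ova, and -0.19, 0.58 and 0.67 in IC. The fit gave 0.11 in Ova (SE 0.37 with adjusted p 0.852) and 0.28 in IC (SE 0.37 with adjusted p 0.593), so no change was called.

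Hsp90ab1, the constitutive HSP90 copy, had the same layout. Levels in mice A, B and C were 2162, 1060 and 1141 CPM in DMSO Ova, 1427, 1782 and 2023 CPM in iBET Ova, 1896, 1125 and 1189 CPM in DMSO IC, and 1520, 1586 and 1337 CPM in iBET IC. Mouse A was lower with iBET in both arms (-0.60 and -0.32 log2 CPM) and mice B and C were higher (0.75 and 0.83 in Ova, 0.50 and 0.17 in IC). The fitted changes were 0.26 (SE 0.28 with adjusted p 0.511) and 0.08 (SE 0.28 with adjusted p 0.854).

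Dnaja1, a J-domain protein that works with Hspa8, repeated this split. It measured 171, 73.5 and 76.3 CPM in DMSO Ova, 94.5, 115 and 112 CPM in iBET Ova, 194, 63.7 and 65.8 CPM in DMSO IC and 105, 72.0 and 67.5 CPM in iBET IC. The iBET minus DMSO differences of Dnaja1 were -0.85, 0.64 and 0.55 log2 CPM in Ova and -0.89, 0.18 and 0.04 in IC. Its fitted changes were 0.04 (SE 0.44 with adjusted p 0.957) and -0.40 (SE 0.44 with adjusted p 0.503). The 95% interval in Ova ran from -0.93 to 1.01, so the 12 libraries do not settle whether Dnaja1 changed. Dnaja1 overlaps Smu1 on the other strand, and 13.4% of its 150-base windows occur in other annotated genes (28.5% for Hsp90aa1).

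Leaving out mouse A, the mouse that went the other way, changed the calls of these genes. Such a fit keeps mice B and C alone, so its calls follow from the mouse omitted and are no separate evidence of a rise. Without mouse A, Hsp90aa1 rose by 0.79 in Ova (adjusted p 0.000210) and by 0.62 in IC (adjusted p 0.00101). Hsp90ab1 rose by 0.76 (adjusted p 0.000443) and by 0.33 (adjusted p 0.0445). Dnaja1 rose by 0.57 in Ova only (adjusted p 0.000569), with 0.10 in IC (adjusted p 0.435). Without mouse C, the Ova changes were -0.12 for Hsp90aa1 (adjusted p 0.900), -0.0039 for Hsp90ab1 (adjusted p 0.996) and -0.19 for Dnaja1 (adjusted p 0.856). The number of members called in Ova went from 4 to 8 without mouse A, and the share of all genes called in that fit is not given here. With the DMSO Ova library of mouse A alone left out, Hsp90aa1 was at 0.72 (adjusted p 0.0441) and Hsp90ab1 at 0.62 (adjusted p 0.0416) in Ova. The high Rn45s share was in that library alone, whereas the high Dnaja1, Hsp90aa1 and Hsp90ab1 levels were in both DMSO libraries of mouse A, and the part of either in the result was not tested.

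**Figure D4:**
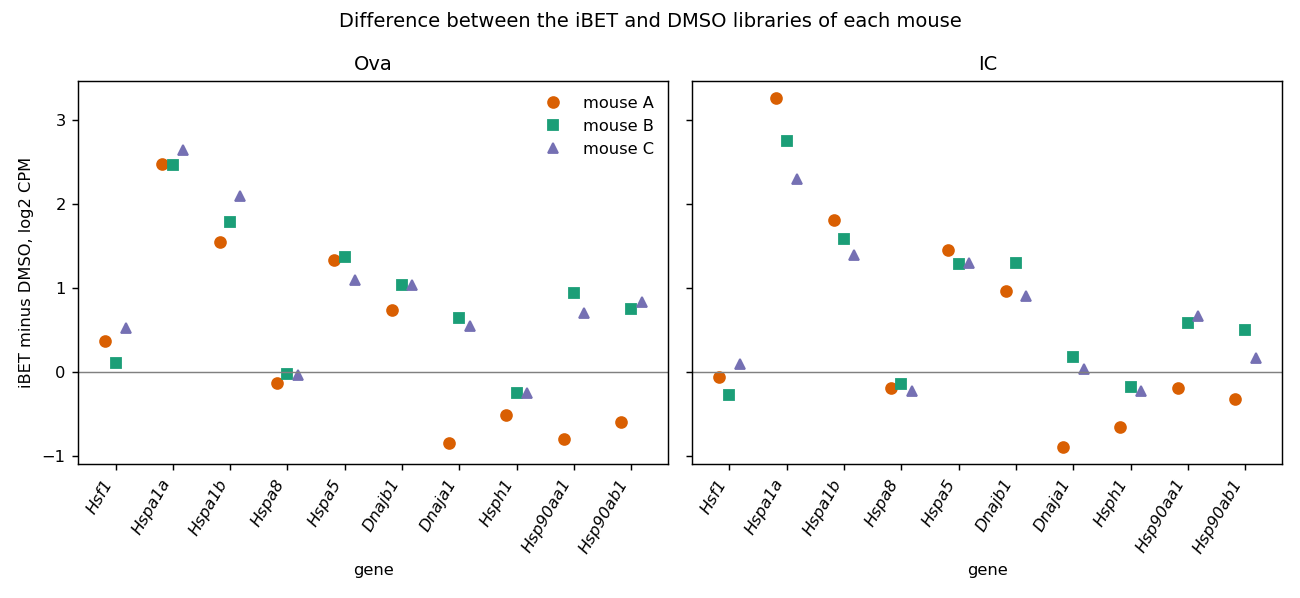
Difference in log2 CPM between the iBET and DMSO libraries of each mouse (y axis) for the 10 genes (x axis), in Ova (left) and IC (right), with 1 symbol per mouse. Mouse A lies below 0 and mice B and C above 0 for Hsp90aa1, Hsp90ab1 and Dnaja1, while all 3 mice lie above 0 for Hspa1a, Hspa1b, Dnajb1 and Hspa5.

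Hspa8, the constitutive HSC70, was the most abundant member in both DMSO groups by CPM and was not called in any comparison. It ranged from 2040 to 2326 CPM in DMSO Ova, 2009 to 2261 in iBET Ova, 1733 to 2168 in DMSO IC and 1571 to 1873 in iBET IC. The Hspa8 change with iBET was -0.06 in Ova (95% interval -0.32 to 0.19) and -0.19 in IC (-0.44 to 0.07), so the interval leaves out a rise of the size seen for Dnajb1. Its transcript windows are shared with other annotated genes in 23.0% of cases.

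Hsf1, the regulator, was a scarce transcript, beside Hspa1a in the DMSO groups by CPM, and was not called either. It measured 6.68, 9.74 and 7.71 CPM in DMSO Ova, 8.64, 10.5 and 11.2 in iBET Ova, 8.50, 11.9 and 10.0 in DMSO IC and 8.11, 9.79 and 10.7 in iBET IC, which all overlap. The Hsf1 change with iBET was 0.27 in Ova (SE 0.20 with adjusted p 0.320) and -0.09 in IC (SE 0.19 with adjusted p 0.729). Only 13 reads stood behind its value in mouse A's DMSO Ova library, and 89 to 152 behind the other 11. The activity of HSF1 protein is set mainly after translation, and these libraries measure its mRNA alone.

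Levels per length of annotated exon spanned a wide range. The length joined all annotated exons of a gene, so it can exceed that of any single transcript. It was 7099 bases for Hsf1 and 2967 for Hspa1a, and the order depends on this choice. By CPM alone Hsf1 (8.04) was above Hspa1a (7.28) in DMSO Ova. In DMSO Ova the order by CPM per kilobase of annotated exon was Hspa8 (510 ± 33.5, SD, n = 3), Hsp90ab1 (485 ± 205), Hsp90aa1 (231 ± 147), Hspa5 (166 ± 13.3), Hsph1 (15.4 ± 1.63), Dnaja1 (12.4 ± 6.40), Dnajb1 (10.4 ± 0.31), Hspa1b (5.53 ± 0.61), Hspa1a (2.45 ± 0.28) and Hsf1 (1.13 ± 0.22). Neighbours from Hspa8 to Hspa5 and from Hsph1 to Dnajb1 had overlapping ranges, and the others did not. In iBET IC Hspa5 (434 ± 34.0 per kilobase) lay beside Hsp90ab1 (494 ± 43.0) and Hspa8 (411 ± 39.6) with overlapping ranges. Hspa1b (25.2 ± 2.45) and Hspa1a (19.4 ± 3.44) lay there above Hsph1 (11.3 ± 0.60). Before division by length, mean CPM there was 70.5 for Hspa1b, 57.6 for Hspa1a and 81.8 for Hsph1. The summed CPM of the 10 genes was 5538 ± 1293 in DMSO Ova, 6858 ± 432 in iBET Ova, 5215 ± 983 in DMSO IC and 6408 ± 328 in iBET IC, and the iBET and DMSO ranges overlapped within each arm.

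Between IC and Ova 1 member was called in DMSO and none in iBET. In DMSO 1 of 10 members was called, Hspa1b, which was higher with IC by 0.62 (SE 0.13 with adjusted p 0.0389, higher in 3 of 3 mice), beside 1.22% of all genes (0.732% higher). Its DMSO Ova libraries lay at 14.3 to 17.5 CPM and its DMSO IC libraries at 21.3 to 24.8 CPM, without overlap, whereas Hspa1a measured 0.23 (adjusted p 0.722). The call of Hspa1b in DMSO was kept in 3 of the 12 fits without 1 library (those without the DMSO Ova or DMSO IC library of mouse A or the iBET Ova library of mouse C) and in 1 of 3 without a mouse (mouse A). In the others its adjusted p reached 0.180 without mouse B's DMSO Ova library and 0.863 without mouse B, with the change between 0.54 and 0.74 in all 15. The CPM ranges of 2 of 10 members did not overlap between IC and Ova in DMSO, Hspa1b (higher with IC) and Dnajb1 (lower), beside 15.3% of all genes. This comparison shares its DMSO Ova libraries with the iBET comparison in Ova.

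With iBET present, no member was called between IC and Ova by edgeR or DESeq2, beside 0.349% of all genes by edgeR. At an unadjusted p under 0.05, passed by 7.50% of all genes, there were 2, Hspa1a (0.43, SE 0.15 with adjusted p 0.444) and Hspa1b (0.37, SE 0.12 with adjusted p 0.377), both higher with IC in 3 of 3 mice. The CPM ranges of 4 of 10 members did not overlap, beside 18.9% of all genes, with Hspa1a and Hspa1b higher with IC and Hspa8 (-0.25, adjusted p 0.686) and Hsph1 (-0.11, adjusted p 0.903) lower. Without mouse A, Dnaja1 was lower with IC under iBET by -0.67 (adjusted p 0.00371). The interaction, which asks whether the iBET effect differed between Ova and IC, gave 0 called members by edgeR and by DESeq2, with none at an unadjusted p under 0.05, and 0% of all genes were called (292 genes, 2.55%, at an unadjusted p under 0.05, and 4 genes or 0.0239% by DESeq2). Its 95% interval ran from -0.30 to 0.70 for Hspa1a, from -0.63 to 0.13 for Hspa1b, from -0.23 to 0.46 for Dnajb1 and from -0.22 to 0.40 for Hspa5, on the log2 scale.

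The wider chaperone network was followed in 125 other listed genes, of which 104 passed the filter on low counts. With iBET 23 were called in Ova (19 higher, 4 lower) and 26 in IC (18 higher, 8 lower), and 17 were called in both, 14 higher and 3 lower, which is 73.9% of the first list and 65.4% of the second. As shares of the 104, that is 18.3% higher and 3.85% lower in Ova and 17.3% higher and 7.69% lower in IC, beside the 17.1%, 14.2%, 19.0% and 15.8% of all genes. The median log2 fold change was 0.09 in Ova and 0.00 in IC.

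Of 15 listed genes of the ER and the unfolded protein response, 6 rose with iBET in Ova (40%, beside 17.1% of all genes) and 8 in IC (53.3%, beside 19.0%), and none was called lower. Ern1, the stress sensor IRE1α, rose by 0.93 in Ova (SE 0.11 with adjusted p 4.58e-05) and by 0.82 in IC (SE 0.10 with adjusted p 8.29e-05). Calr, the lectin chaperone calreticulin, went from 3152 ± 230 CPM in DMSO Ova to 5496 ± 564 in iBET Ova (0.80, SE 0.12 with adjusted p 0.000288) and rose by 0.57 in IC (adjusted p 0.00235). Herpud1, which serves the degradation of ER proteins, rose by 0.90 in IC (SE 0.28 with adjusted p 0.0267) and measured 0.62 in Ova (adjusted p 0.140). Named here after their values were seen, the ER HSP110 gene Hyou1, Manf, the isomerase gene P4hb and Sdf2l1 rose in both arms by 0.30 to 0.62, and Atf6 in IC by 0.41. The others were not called, among them the ER HSP90 gene Hsp90b1 (0.20 in Ova, adjusted p 0.345, and 0.05 in IC, adjusted p 0.828), Xbp1 (0.14 and 0.09) and the lectin chaperone gene Canx (0.09 and 0.04). Dnajb9, an ER J-domain protein and partner of BiP, rose by 0.85 in Ova (SE 0.13 with adjusted p 0.000328) and 0.78 in IC (SE 0.13 with adjusted p 0.000496).

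**Figure D5:**
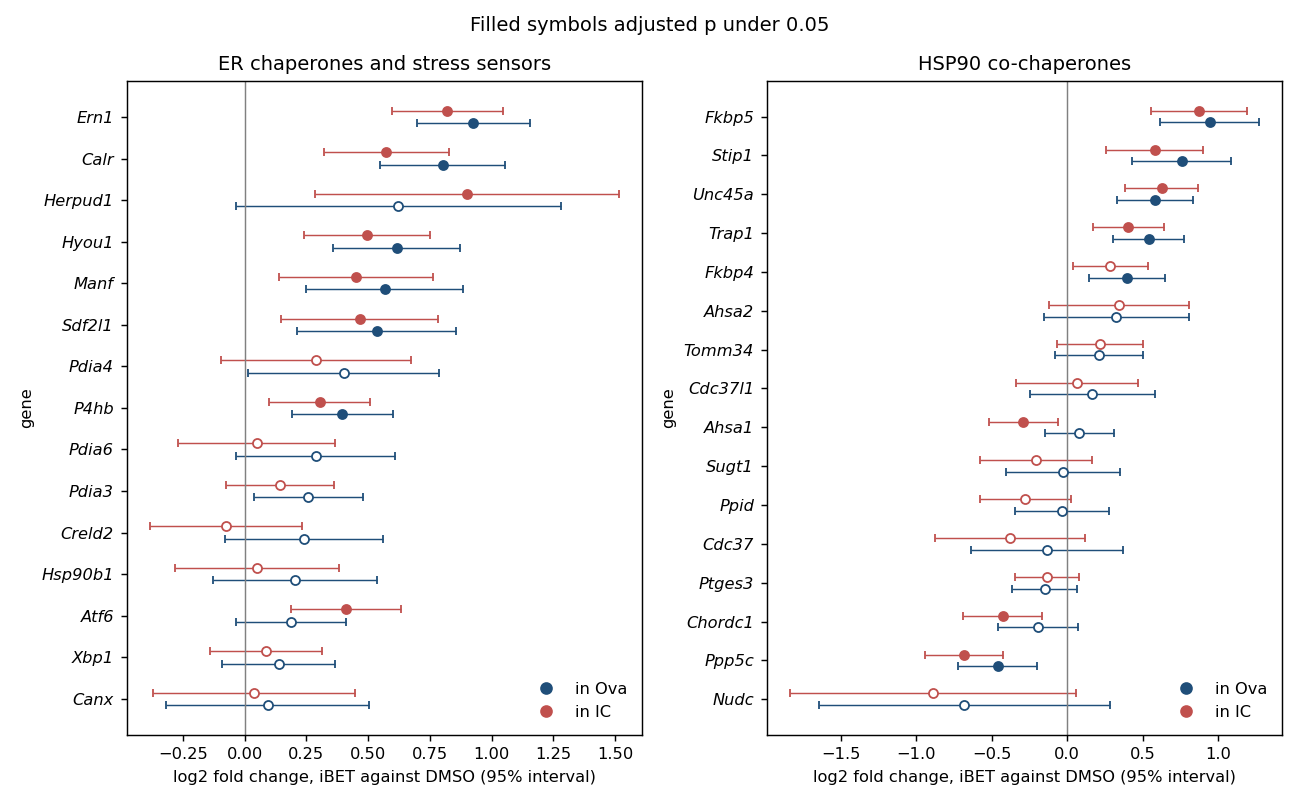
Log2 fold change with iBET against DMSO (x axis) and 95% interval of 15 ER genes (left) and 16 genes of the HSP90 co-chaperone list (right), by gene (y axis), in Ova (blue) and IC (red), filled at an adjusted p under 0.05. The list on the right includes the mitochondrial HSP90 gene Trap1. Every called ER gene lies above 0, and the called co-chaperone genes lie on both sides of 0.

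The list of 16 HSP90 co-chaperone genes also holds the mitochondrial HSP90 gene Trap1. Its genes moved in both directions, with 5 higher and 1 lower in Ova (31.2% and 6.25%, beside 17.1% and 14.2% of all genes). In IC 4 were higher and 3 lower (25% and 18.8%, beside 19.0% and 15.8%). Fkbp5, a prolyl isomerase that binds HSP90, rose by 0.94 (SE 0.15 with adjusted p 0.000538) and 0.87 (SE 0.15 with adjusted p 0.000663). Stip1, which bridges HSP70 and HSP90, rose from 79.5 ± 6.90 to 134 ± 9.37 CPM in Ova (0.76, adjusted p 0.00232) and by 0.58 in IC (adjusted p 0.00921). Unc45a, a myosin-directed chaperone, rose by 0.63 in IC (SE 0.11 with adjusted p 0.000981). It was also higher with iBET in Ova, at 21.3 ± 1.60 CPM in DMSO Ova and 32.3 ± 2.92 CPM in iBET Ova. Ppp5c, an HSP90-bound phosphatase, fell by 0.46 in Ova (adjusted p 0.0119) and by 0.68 in IC (adjusted p 0.000795). Chordc1 and Ahsa1, which activates the HSP90 ATPase, fell in IC by 0.43 (adjusted p 0.0158) and 0.29 (adjusted p 0.0496).

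Among the other HSP70 genes 1 of 7 tested rose in each arm (14.3%, below the 17.1% and 19.0% of all genes that rose). It was Hspa2, an HSP70 best known from male germ cells, which was at 8.60 ± 1.97 CPM in DMSO Ova and 23.6 ± 2.06 CPM in iBET Ova (1.53, SE 0.19 with adjusted p 8.94e-05) and at 5.85 ± 1.07 CPM in DMSO IC and 18.3 ± 2.68 CPM in iBET IC (1.64, SE 0.19 with adjusted p 3.95e-05). Of 35 J-domain genes tested, 5 rose and 2 fell in Ova (14.3% and 5.71%) and 3 rose and 3 fell in IC (8.57% each), all below the shares of all genes. Dnajb4, the closest relative of Dnajb1 named by the rule, fell by 0.73 in Ova (SE 0.18 with adjusted p 0.00893) and by 0.86 in IC (SE 0.18 with adjusted p 0.00265). Dnajb5 rose by 0.67 in Ova (adjusted p 0.0422). Dnajc12 rose by 0.80 in IC (adjusted p 0.0118). In Ova it was not called, at 5.06 ± 1.72 CPM in DMSO and 8.31 ± 0.83 CPM in iBET. Dnajc7 fell by 1.21 in IC (SE 0.35 with adjusted p 0.0197). Its DMSO IC libraries were widely spread, from 50.4 to 112 CPM, and its iBET IC libraries ran from 27.2 to 34.8 CPM. The other J-domain calls, named outside the rule, were Dnajc5 (higher in both arms), Dnajc16 and Dnajc28 (higher in Ova) and Dnajc17 (lower in both).

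Exchange factors and regulators of HSP70 gave 1 higher and 1 lower call of 10 in each arm, again below the shares of all genes. They were Stub1, a ubiquitin ligase that binds chaperones (0.78 in Ova, adjusted p 0.0342), and Bag2 in Ova (-0.83, adjusted p 0.0442, named outside the rule), and Bag4 (0.35, adjusted p 0.0313, likewise) and Bag3 in IC (-0.31, SE 0.10 with adjusted p 0.0280). Of 10 chaperonin genes tested, Hspd1 (mitochondrial HSP60) fell in IC by 0.38 (adjusted p 0.0396), and no call was made in Ova, where 2 had an unadjusted p under 0.05 (41.6% of all genes). None of 6 prefoldin genes was called in either arm, with 0 in Ova and 2 in IC at an unadjusted p under 0.05 (44.4% of all genes in IC). The small heat shock genes tested (2 of 10 listed, Hspb6 and Hspb11) were not called, with 0 at an unadjusted p under 0.05. Of 3 genes tested in the heat shock factor list (Hsf2, Hsf4 and Hsbp1, which encodes a protein that binds heat shock factors), Hsf2 rose in both arms (0.65, adjusted p 0.000885, and 0.44, adjusted p 0.00769).

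A list of 17 other genes often reported as heat-inducible, which overlaps the lists above, had 14 tested. In Ova 4 were higher and 1 lower with iBET (28.6% and 7.14%, beside 17.1% and 14.2% of all genes), and in IC 3 were higher and 5 lower (21.4% and 35.7%, beside 19.0% and 15.8%). Among the higher ones were Stip1 and the polyubiquitin gene Ubb (0.49 and 0.52) in both arms, and Fkbp4 in Ova (0.40, adjusted p 0.0203). The lower ones in IC were Dnajb4, Chordc1, Hspd1, Bag3 and Ahsa1, and Dnajb4 was the one in Ova. The median log2 fold change of the list was -0.08 in Ova, where its calls were mostly higher, and -0.18 in IC, where they were mostly lower.

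Between IC and Ova none of the 104 other chaperone genes was called in DMSO by edgeR or DESeq2, with 6 at an unadjusted p under 0.05 (11.7% of all genes). In iBET 1 was called lower, beside 0.0349% of all genes, the mitochondrial J-domain gene Dnajc28, at 9.19 ± 1.21 CPM in iBET Ova and 4.44 ± 0.23 CPM in iBET IC (-1.04, SE 0.18 with adjusted p 0.0237). None was called for the interaction by either tool, with 1 at an unadjusted p under 0.05.

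The genes whose log2 CPM across the 12 libraries was most like the mean of Hspa1a, Hspa1b, Dnajb1, Hsph1, Hsp90aa1 and Hspa8 were Jak1, Mepce, Nfil3, Osbpl2 and Usp53, with Pearson r of 0.99, 0.99, 0.99, 0.98 and 0.98. For Hsf1 they were Mir7036, Prep, Xylt1, 2210416O15Rik and Enthd2, with r of 0.93, 0.86, 0.86, 0.85 and 0.84. The 12 points share 4 groups and 3 mice and are given as a description.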

How the data were processed

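The authors trimmed reads with Trim Galore, aligned them to mm10 with HISAT2 and counted them per gene with featureCounts, from libraries made with a stranded pico-input kit. The annotation, the strand setting and the treatment of reads that match several genes are not given in the sources used here. The deposited counts (whole reads per gene) gave every main value. The deposited normalized signal (the authors' counts divided by size factors) was used in 1 alternative, limma on log2 of the value plus 1.

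Genes were filtered with filterByExpr, scaled by TMM and fitted with edgeR 4.0.16 (robust quasi-likelihood, all 12 libraries, 1 term per group, R 4.3.3), with Benjamini-Hochberg adjustment over 11468 genes and calls at an adjusted p under 0.05. Differences by mouse are in log2 CPM with a prior count of 2. Mouse is named in the labels, and same-mouse libraries of different groups deviated from their group means with r of -0.07 to 0.54 (median 0.26, 18 pairs), against a median of -0.13 over 36 pairs of different mice. Alternatives used DESeq2 1.42.0, limma 3.58.1, sva 3.50.0 and other filters. The test scripts were checked on simulated data.

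The 10 genes, the other lists and the tests were chosen with earlier results of these data known. All 10 were named in every comparison. Of the other chaperones, the rule named for each iBET comparison up to 8 rises and 8 falls, by size, among called genes whose mean count reached 50 and whose 3 mice agreed in direction, and for the rest up to 5 called genes by p. The 5 most alike genes were named by r. Some genes of the lists are counted but not reported here by name.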

Additional observations from a re-analysis of the deposited data

Results flagged for a closer look

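Hsf1 moved in opposite directions with IC in the DMSO and iBET arms in every mouse. In DMSO the difference of IC from Ova was 0.34, 0.28 and 0.37 log2 CPM in mice A, B and C, with a fitted log2 fold change of 0.28 (SE 0.20, adjusted p 0.687). Under iBET it was -0.09, -0.10 and -0.07, with a fitted change of -0.089 (SE 0.19, adjusted p 0.959). The interaction itself was -0.37 (SE 0.27, adjusted p 1.00), so the difference between the arms did not pass the test. Groups of 3 libraries were not screened for single outlying values.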

How the results depend on the processing

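The rises of Hspa1a, Hspa1b, Dnajb1 and Hspa5 with iBET kept their direction and their call in every alternative run, in both arms. Mouse as a block changed the call of Hsph1 in Ova and of no other member. With the compared groups fitted alone, with limma on the normalized signal, or at an adjusted p under 0.01, 0 members were called for IC in DMSO. With 1 surrogate variable 7 members were called for iBET in Ova, as were 42 other chaperone genes, and 2 other chaperone genes for IC in DMSO. The share of all genes called with 1 surrogate variable, or with a library or mouse left out, is not given here, so these counts have no background beside them. At an adjusted p under 0.01 the other chaperone genes called were 12 (iBET in Ova), 13 (iBET in IC) and 0 (IC in iBET). Leaving out 1 library or mouse gave 0 to 1 members for IC in DMSO, 0 to 1 for IC in iBET and 4 to 8 for iBET in Ova (8 without mouse A). It gave 7 to 40 other chaperone genes for iBET in Ova (7 without mouse B, 10 without mouse C, 40 without mouse A, and 15 without mouse B's iBET Ova library), and 8 to 32 for iBET in IC (8 without mouse B, 11 without mouse C, and 17 when mouse B's or mouse C's iBET IC library was omitted). For IC in iBET the range was 0 to 5, with 5 without mouse A.

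Sign changes came only in comparisons in which the main fit did not call the member. For IC in DMSO, Dnaja1 was at -0.022 with mouse as a block and -0.077 with limma, Hsp90aa1 at 0.026 and Hsp90ab1 at 0.073 with 1 surrogate variable, and 0.30 and 0.27 with the block and without mouse A's DMSO Ova library. With 1 surrogate variable Hsp90aa1 was at 0.15 for IC in iBET, Dnaja1 at 0.10 for iBET in IC and Hsph1 at 0.0011 for the interaction. DESeq2 put Dnaja1 at -0.020 for iBET in Ova, and the interaction of Hsp90aa1 was -0.32 with the block and without mouse A's DMSO Ova library. Over the fits that left out 1 library or mouse, the log2 change for IC in DMSO ran from -0.66 to 0.49 (Dnaja1), -0.57 to 0.43 (Hsp90aa1), -0.32 to 0.32 (Hsp90ab1), -0.23 to 0.011 (Hsph1) and -0.015 to 0.11 (Hspa5). For IC in iBET it ran from -0.19 to 0.022 (Hsf1), -0.15 to 0.014 (Dnajb1) and -0.089 to 0.072 (Hsp90aa1). For iBET in Ova it ran from -0.23 to 0.57 (Dnaja1), -0.20 to 0.79 (Hsp90aa1) and -0.0039 to 0.76 (Hsp90ab1), and for iBET in IC from -0.24 to 0.033 (Hsf1), -0.67 to 0.30 (Dnaja1) and -0.11 to 0.33 (Hsp90ab1). For the interaction it ran from -0.015 to 0.48 (Hspa1a), -0.87 to 0.28 (Dnaja1), -0.44 to 0.56 (Hsp90aa1), -0.55 to 0.092 (Hsp90ab1) and -0.12 to 0.12 (Hsph1). The cause was not tested. In mouse A's DMSO Ova library, the shallowest outside Rn45s, Hsf1 and Hspa1a rested on 13 and 16 reads.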
